A study of Mus musculus with 18 samples.

Results

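MC38 cells deleted for Apc, a tumour suppressor gene, were compared with APC-intact MC38 cells, both after 24 h of 1 µM doxycycline. The comparison took 6 of the series' 18 RNA sequencing libraries, 3 per line, chosen by the titles that name the line, the hairpin and the time. MC38 is a mouse colon adenocarcinoma line from C57BL6. All 6 libraries came from cells with a doxycycline-inducible hairpin against Tdo2, grown in serum approved for Tet systems, so the hairpin and the drug are shared by both groups. No 24 h group lacked the hairpin. The 3 libraries of a group are labelled as biological replicates, but separate cultures are not stated, nor whether the APC-deleted line was 1 clone. A p-value here therefore covers only library-to-library spread, part or all of which may be technical.

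A tag in the deposited files' names was read as a sequencing run. On that reading the APC-deleted 24 h libraries belong to run RNA2 and the APC-intact 24 h libraries to run RNA1, so line and run coincide and cannot be told apart by these 6 libraries. The line difference without doxycycline lies within run RNA1 and that at 48 h within run RNA2, with 3 libraries per line each. Both are set beside the 24 h values below, and they share no library with them or with each other. The untreated libraries do not carry the hairpin's name in their titles, and whether those cells had it was not settled here.

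APC is the scaffold of the cytoplasmic complex that marks β-catenin for destruction when no Wnt ligand is bound. Without it β-catenin can enter the nucleus and act with TCF and LEF factors on target genes, among them its own feedback inhibitors, and loss of APC is a usual early step in colorectal tumours. TDO2 is a dioxygenase at the first step from tryptophan to kynurenine, and kynurenine is a ligand of the aryl hydrocarbon receptor. The comparison addresses how the lines differ while the hairpin is induced.

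Values are gene counts scaled to a fixed library total (CPM) with TMM factors. Fold changes are log2 of APC-deleted over APC-intact cells ± SE from edgeR's quasi-likelihood fit, with n = 3 per group and p-values adjusted by Benjamini and Hochberg over all genes tested at a threshold of 0.05. Of 39179 genes in the files, 2617 on the X were left out, 24005 of the other 36562 had a count, and 14493 passed the filter on low counts and were tested. Gene counts per library at 24 h ran from 69968795 (APC-intact replicate 1) to 108514026 (APC-deleted replicate 2). On principal components over all 18 libraries, the lines lay apart on component 1, with 49.4% of the variance. APC-intact 24 h replicate 1 stood apart on component 4, APC-intact 24 h replicate 2 on component 5 and APC-deleted 48 h replicate 2 on component 3. In a chi-square per degree of freedom between replicates, APC-intact 24 h replicate 2 was at 46.5 and 71.2 from the other two, which were at 27.1 from each other. Reads in no annotated gene took 5.33 to 5.59% of the APC-deleted libraries and 5.59 to 6.59% of the APC-intact ones at 24 h, and their part in the results was not tested.

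Of the intestinal epithelial markers, 5 of 12 passed the filter. The summed level of all 12 was 4.19 to 4.62 CPM in APC-deleted and 2.28 to 3.36 CPM in APC-intact libraries. Cdx2 had 0 counts in the 6 libraries, and Epcam had 0 counts in APC-deleted libraries, against 1 in APC-intact ones. Fibroblast markers were abundant in both lines, with sums of 3587 to 3721 CPM against 2929 to 3058 CPM over all 9 members, of which 8 were tested. Of the 8, 5 were higher in APC-deleted cells, among them Col1a1, Pdgfra, Lum and Pdgfrb, and none was lower with edgeR at an adjusted or unadjusted p, or with DESeq2 at an adjusted p (1 at an unadjusted p under 0.05). Of the haematopoietic markers 3 were tested, 1 higher and 1 lower. The 10 matched by symbol summed to 28.9 to 30.1 CPM in APC-deleted and 27.3 to 31.5 CPM in APC-intact libraries. Ptprc, the pan-leukocyte marker, did not pass the filter, with 2 counts in all in APC-deleted and 6 in APC-intact libraries. The RNA is of bulk cultures, in which more cells that express a gene and more RNA per cell cannot be told apart.

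The targeted genes came first. Apc, on chromosome 18, had 83.3, 86.1 and 87.1 CPM in APC-deleted libraries, against 139, 99.2 and 151 CPM in APC-intact libraries. The groups did not overlap, and transcript remained in the deleted line at a log2 fold change of -0.60 ± 0.12 (adjusted p = 0.0011). The difference was -0.56 ± 0.12 untreated and -0.71 ± 0.12 at 48 h. The counts cover the whole gene, and the part that was deleted is not given in the sources used here. Tdo2, the hairpin's target, had 0.103, 0.157 and 0.0748 CPM in APC-deleted and 0.0835, 0.203 and 0.269 CPM in APC-intact libraries, or 34 and 49 counts in all. The groups overlapped, with a log2 fold change of -0.74 ± 0.50 (adjusted p = 0.29), and at this depth no difference was detectable.

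At 24 h, 4488 of 14493 genes differed between the lines (31%), of which 2338 were higher (16.1%) and 2150 lower (14.8%) in APC-deleted cells. Most differences were small, with a median size of 0.34 on the log2 scale among the genes called, and 749 genes (5.17%) were called and differed at least 2-fold, 287 higher (1.98%) and 462 lower (3.19%). The CPM of the lines did not overlap in 42% of genes tested. At 8-fold or more 129 genes called were lower and 19 higher. Among genes with at least 5 CPM in the higher group, 2-fold calls were 85 higher and 68 lower, while 4-fold calls were 15 higher and 31 lower and 8-fold calls 2 higher and 18 lower. In that set 7 genes were nearly silent in APC-deleted cells (under 0.1 CPM) and none in APC-intact cells. They were Bnc1, Ptprk, Ttc38, Epb4.1l3, Cd28, Cd302 and CAAA01147332.1. The last, on a scaffold outside the assembled chromosomes, had 1 count in APC-deleted and 5546 in APC-intact libraries (18.4, 32.2 and 16.8 CPM). Against a fold of 1.5, 563 genes passed, 231 higher and 332 lower.

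The largest falls began with genes that were almost without reads in the APC-deleted line. Bnc1, a zinc finger transcription factor of basal keratinocytes and germ cells (chr7:81966672-81992299, minus strand, mm10), had 0 counts in the APC-deleted libraries and 1322 in the APC-intact ones, at 5.97, 5.01 and 4.98 CPM. With 3 counts over the group as the floor it was at least 525-fold lower in APC-deleted cells. Ptprk, a receptor tyrosine phosphatase of cell contacts (chr10:28074820-28597397, plus strand), had 1 count in APC-deleted and 1518 in APC-intact libraries, a ratio of 0.000553 (95% counting interval 1.4e-05 to 0.00309). Ttc38 (chr15:85832306-85858822, plus strand) had 3 counts in APC-deleted and 2058 in APC-intact libraries, a ratio of 0.00122 (interval 0.000252 to 0.00358). Their fitted log2 fold changes rest on these few reads: that of Ptprk was -10.32, and -12.09 without APC-deleted replicate 3, and that of Ttc38 was -9.49, and -10.27 without APC-deleted replicate 2. Intervals and floors cover counting error only.

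Of the near-silent genes, Bnc1, Ptprk, Ttc38 and Cd302 were matched by symbol to the RefSeq promoter table (build GRCm38.p6). The 250 bases before the start held 39 CG pairs at Bnc1, 38 at Ptprk, 13 at Ttc38 and 3 at Cd302, against a median of 6 over 32851 such windows. At least as many pairs as at Bnc1 stood in 1.56% of windows, as at Ptprk in 1.88%, as at Ttc38 in 31.5% and as at Cd302 in 71.0%. CG is its own reverse complement, so 1 strand was counted. The windows of the leading falls are shown with each CG in capitals, Bnc1 from chr7:81992300-81992549 on the minus strand and Ptprk from chr10:28074570-28074819 on the plus strand. The count describes the sequence, and methylation was not measured.
Bnc1: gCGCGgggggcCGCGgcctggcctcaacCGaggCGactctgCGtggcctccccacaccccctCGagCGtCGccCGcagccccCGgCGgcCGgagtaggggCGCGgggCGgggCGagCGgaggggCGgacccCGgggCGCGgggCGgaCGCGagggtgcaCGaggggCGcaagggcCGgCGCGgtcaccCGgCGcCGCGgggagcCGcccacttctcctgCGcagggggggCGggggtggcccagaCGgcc
Ptprk: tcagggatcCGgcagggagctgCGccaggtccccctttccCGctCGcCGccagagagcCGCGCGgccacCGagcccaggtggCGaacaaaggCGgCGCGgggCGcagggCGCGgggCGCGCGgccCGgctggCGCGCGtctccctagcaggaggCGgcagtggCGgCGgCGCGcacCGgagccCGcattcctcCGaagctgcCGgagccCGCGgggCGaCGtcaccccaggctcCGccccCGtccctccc

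Epb4.1l3, a cytoskeletal adaptor of the band 4.1 family, had 0.0722, 0.0463 and 0.107 CPM in APC-deleted libraries, against 43.9, 46.0 and 46.3 CPM in APC-intact libraries (log2 fold change -9.24 ± 0.15, adjusted p = 2.7e-19). Mmp2, the gelatinase that cuts type IV collagen, had 0.567, 0.482 and 0.449 CPM, against 35.5, 36.9 and 35.6 CPM in APC-intact cells (-6.17 ± 0.15, adjusted p = 2.5e-16). In both genes every APC-deleted library lay far below every APC-intact one, and non-overlap was a condition for naming them among the largest falls. Col6a3, a chain of the microfibrillar type VI collagen, had 3.08, 3.68 and 4.32 CPM in APC-deleted and 70.9, 66.6 and 82.3 CPM in APC-intact libraries (-4.31 ± 0.19). The costimulatory receptor Cd28 was at -8.57 ± 0.29, and at -9.72 without APC-deleted 24 h replicate 2, which held most of its few reads. The lectin receptor Cd302 (-5.90), the chondroitin sulphotransferase Chst15 (-5.33), the adhesion receptor Gpr128 (-5.19), the prostaglandin transporter Slco2a1 (-5.01) and the extracellular superoxide dismutase Sod3 (-4.89) also fell. So did Ulbp1 (-4.33), a ligand of the NKG2D receptor of natural killer cells, and the acid-sensing channel Asic1 (-3.23).

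The largest rise by the rule was Scube3, a secreted glycoprotein, with 15.9, 17.4 and 17.0 CPM in APC-deleted libraries and 0.974, 1.22 and 1.24 CPM in APC-intact libraries (log2 fold change 3.87 ± 0.11, adjusted p = 1.2e-15). Lrrn4cl, a membrane protein, had 452, 440.4 and 436 CPM against 28, 33.4 and 31.5 CPM in APC-intact cells (3.84 ± 0.07). The CPM of neither gene overlapped between the lines, which the rule for the largest rises required. Csf3, the granulocyte colony-stimulating factor, had 12.7, 13.7 and 11.8 CPM in APC-deleted and 1.82, 1.94 and 1.69 CPM in APC-intact libraries (2.81 ± 0.16, adjusted p = 6.7e-11). Others were the ubiquitin ligase Sh3rf2 (2.99), the prostacyclin synthase Ptgis (2.94), the glutathione transferase Gsta4 (2.94) and the axon guidance ligand Sema3f (2.55). They also included Col12a1 (2.31), a fibril-associated collagen, the sialomucin Podxl (2.29), the metalloprotease Adam19 (2.23), the synaptic adhesion protein Clstn3 (2.19) and the integrin ligand Npnt (2.14). All 14 rises and 14 falls were also called in the same direction untreated and at 48 h.

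**Figure D1:**
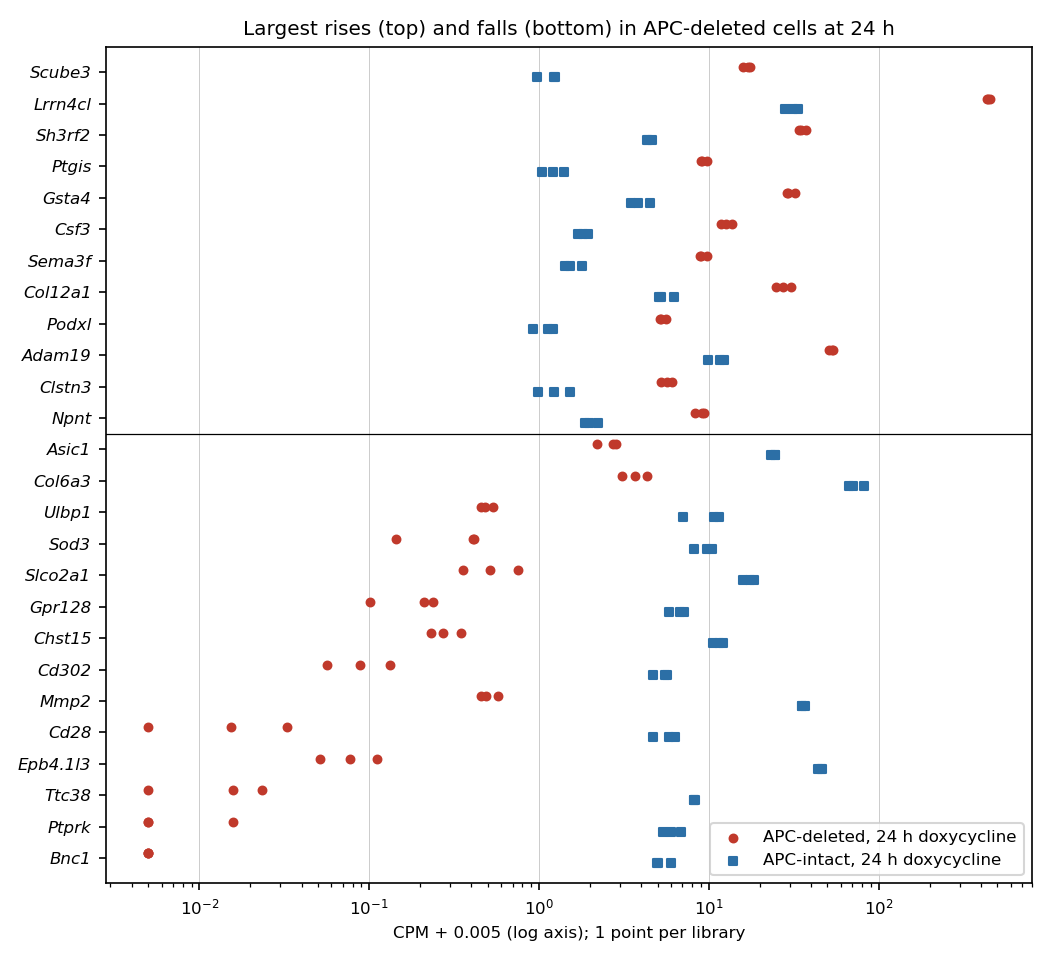
CPM in each library at 24 h for 12 of the 14 largest rises (top) and the 14 largest falls (bottom) admitted by the naming rule, on a log axis after adding 0.005. Circles are the 3 APC-deleted and squares the 3 APC-intact libraries. The rule admitted only genes whose groups did not overlap, and Bnc1 had 0 counts in every APC-deleted library.

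Wnt feedback and target genes were higher in part and lower in part. Of 26 listed, 15 were tested, 7 were higher and 2 lower, with a median log2 fold change of 0.16 (the mean, at -0.24, has the other sign), against a median of -0.004 over all genes tested. Rnf43, a ubiquitin ligase that removes Wnt receptors, had 35.1, 32.5 and 38.3 CPM in APC-deleted libraries and 14.3, 14 and 14.2 CPM in APC-intact libraries (1.32 ± 0.07, adjusted p = 1.1e-11). Axin2, the feedback scaffold of the destruction complex, had 7.99, 7.69 and 8.46 CPM against 6.58, 5.21 and 5.33 CPM in APC-intact cells (0.50 ± 0.09, adjusted p = 0.00037). The groups did not overlap in either gene.

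Tcf7 (0.51 ± 0.08) and Lef1 (0.44 ± 0.06), which encode nuclear partners of β-catenin, also rose, as did the ephrin receptor gene Ephb3 (0.48 ± 0.07) and Bmp4 (0.42 ± 0.08). Znrf3, the homologue of Rnf43, was at 0.16 ± 0.06 with an adjusted p of 0.035. Its call was lost without any of APC-deleted replicates 1 (adjusted p = 0.063), 2 (0.11) or 3 (0.086), or APC-intact replicates 1 (0.057) or 2 (0.12), and kept only without APC-intact replicate 3. Apcdd1, a membrane inhibitor of Wnt signalling, had 1.48, 1.20 and 0.983 CPM in APC-deleted and 6.53, 7.58 and 6.34 CPM in APC-intact libraries (-2.47 ± 0.17). Ephb2, a receptor of the crypt's base, was at 0.0206, 0.0926 and 0.0321 CPM against 1.25, 1.40 and 1.51 CPM in APC-intact cells (-4.76 ± 0.35, and -5.65 without APC-deleted 24 h replicate 2). Myc (0.16 ± 0.07, adjusted p = 0.073) and Ccnd1 (-0.01 ± 0.04, adjusted p = 0.89), which are often named as targets, did not pass the test. Myc passed it without APC-intact 24 h replicate 1, at 0.21 (adjusted p = 0.030). The crypt genes Lgr5, Ascl2, Sp5 and Nkd1 did not pass the filter, with 7 counts or fewer per line over 3 libraries.

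For the destruction complex and its TCF partners, 24 of 25 genes were tested, 5 were higher and 2 lower, with a median of 0.07. Over all genes tested, 16.1% were higher and 14.8% lower. Ctnnb1, which encodes β-catenin, had 581, 610.0 and 582 CPM in APC-deleted and 601, 538 and 605 CPM in APC-intact libraries, which overlapped (0.02 ± 0.05, adjusted p = 0.74). Beside Apc, Pygo1, a coactivator of β-catenin, was lower (-0.82 ± 0.06, adjusted p = 5.3e-09). Tcf7l1 (0.49 ± 0.08), the Wnt transducer Dvl2 (0.28 ± 0.06), the kinase Csnk1e (0.26 ± 0.05) and the ligase adaptor Btrc (0.20 ± 0.05) rose.

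Of 36 Wnt ligands, receptors and secreted modulators, 23 were tested, 12 were higher and 3 lower, with a median of 0.25. Wnt5a, a ligand known for β-catenin-independent signalling, had 55.9, 52.4 and 50.2 CPM in APC-deleted and 33.4, 32.4 and 36.0 CPM in APC-intact libraries (0.64 ± 0.06, adjusted p = 4.3e-08). Further ligands that rose were Wnt5b (2.66 ± 0.32), Wnt11 (2.12 ± 0.36), Wnt6 (0.84 ± 0.19), Wnt9a (0.47 ± 0.07) and Wnt10b (0.25 ± 0.07), of which Wnt5b and Wnt11 were under 1 CPM in every library at 24 h. Among receptors Fzd7 (0.49 ± 0.05), Fzd4 (0.57 ± 0.15), Fzd5 (0.33 ± 0.07) and the R-spondin receptor Lgr4 (0.59 ± 0.08) rose. Dkk3, a secreted protein of the Dickkopf family, fell to 22.8, 19.6 and 19.2 CPM in APC-deleted libraries, against 46.6, 46.8 and 46.0 CPM in APC-intact ones (-1.18 ± 0.06). The count of 3 lower became 1 without APC-deleted replicate 2 and 1 without APC-deleted replicate 3.

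**Figure D2:**
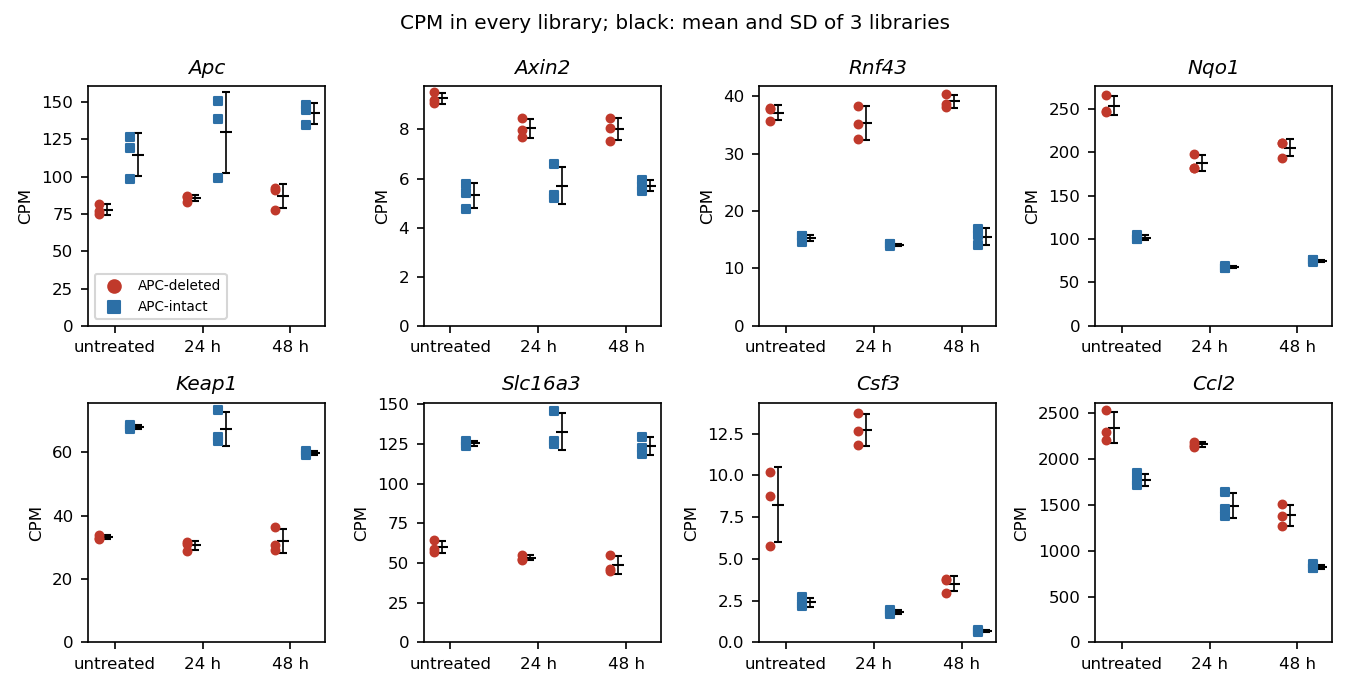
CPM of 8 genes in all 18 libraries, by time on doxycycline, with the mean and SD of 3 libraries in black; circles are APC-deleted and squares APC-intact libraries. Untreated libraries are of run RNA1 and 48 h libraries of run RNA2, while at 24 h the APC-deleted libraries are of RNA2 and the APC-intact ones of RNA1; in each of these genes the lines stay apart in the same direction at every time.

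Of 13 kynurenine pathway genes 6 were tested, 2 higher and 1 lower, with a median of -0.16. Ccbl2, a kynurenine aminotransferase, was at 0.29 ± 0.06 (adjusted p = 0.00059). Afmid, the formamidase that acts after TDO2, was at -0.32 ± 0.10 (adjusted p = 0.022), a call lost without APC-deleted replicate 1 (adjusted p = 0.065), APC-deleted replicate 2 (0.055) or APC-intact replicate 1 (0.059). Ido2 was at -0.60 ± 0.44 (adjusted p = 0.34). Ido1, Kmo and Kynu did not pass the filter, with 7 counts or fewer per line. In the list of the aryl hydrocarbon receptor 7 of 13 were tested, 5 were higher, with a median of 0.40, and none lower with edgeR or DESeq2 at an adjusted or unadjusted p under 0.05. Ahr itself had 57, 52.6 and 54.4 CPM in APC-deleted and 37.9, 33.8 and 40.3 CPM in APC-intact libraries (0.55 ± 0.07, adjusted p = 3e-06). Its partner Arnt (0.23 ± 0.05) and its target Tiparp (0.40 ± 0.10) rose, and the other 2 were Nqo1 and Gsta4, which NRF2 also controls. The receptor's classical target Cyp1a1 did not pass the filter, with 18 counts in all in APC-deleted and 1 in APC-intact libraries.

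NRF2 antioxidant genes were higher in the APC-deleted line: of 25 tested, 17 rose and 1 fell, with a median of 0.34. NRF2, encoded by Nfe2l2, is a transcription factor held in check by the adaptor KEAP1, which sends it to degradation until oxidants or electrophiles release it. Keap1, counted in the list as its inhibitor, was the gene that fell. It had 31.7, 29.0 and 31.1 CPM in APC-deleted libraries, against 65.0, 73.5 and 63.4 CPM in APC-intact libraries (-1.14 ± 0.07, adjusted p = 1.1e-10). Nqo1, the quinone reductase, had 182, 182 and 198 CPM in APC-deleted and 67.0, 69.5 and 66.8 CPM in APC-intact libraries (1.47 ± 0.05, adjusted p = 1.9e-14). Neither gene's groups overlapped.

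The glutathione transferases Gsta4 (2.94 ± 0.10) and Gstm1 (1.00 ± 0.07) and Osgin1 (0.93 ± 0.08) also rose, though transferases of 1 family can share reads with close copies. Gclm (0.78 ± 0.05) and Gclc (0.42 ± 0.06), the subunits of the rate-limiting enzyme of glutathione synthesis, the reductases Txnrd1 (0.70 ± 0.05) and Gsr (0.34 ± 0.06) and the ferritin chain Fth1 (0.51 ± 0.10) rose too. Nfe2l2 (0.12 ± 0.05, adjusted p = 0.060) did not pass the test, and passed it without APC-intact 24 h replicate 3 (0.15, adjusted p = 0.044). Hmox1, the haem oxygenase, had 93.0, 105 and 95.7 CPM against 91.4, 94.8 and 86.8 CPM in APC-intact cells, which overlapped (0.11 ± 0.06, adjusted p = 0.16).

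NRF2 binds the antioxidant response element, searched as TGACNNNGC on both strands of the 250 bases before the start. Of the 25 list genes, 20 matched the promoter table with 27 windows, of which 4 held a match (14.8%, against 10.2% of all windows), at Gclm, Txnrd1, Prdx1 and Nfe2l2. The windows of Gclm (chr3:122245307-122245556, plus strand) and Txnrd1 (chr10:82858956-82859205, plus strand) are shown as those of the larger rises among the 4, with the match in capitals. Both matches lie on the reverse strand, so they read as the reverse complement of the element. A match is a run of letters and not a measured site.
Gclm: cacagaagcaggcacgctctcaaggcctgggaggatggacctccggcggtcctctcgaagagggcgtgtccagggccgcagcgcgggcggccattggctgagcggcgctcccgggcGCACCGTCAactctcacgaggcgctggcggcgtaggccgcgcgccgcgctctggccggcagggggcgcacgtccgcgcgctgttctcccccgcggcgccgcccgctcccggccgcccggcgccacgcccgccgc
Txnrd1: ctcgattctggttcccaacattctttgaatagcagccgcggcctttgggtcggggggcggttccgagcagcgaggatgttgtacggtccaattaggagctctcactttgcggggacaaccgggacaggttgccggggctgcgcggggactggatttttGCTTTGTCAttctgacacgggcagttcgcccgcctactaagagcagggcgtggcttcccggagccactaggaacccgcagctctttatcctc
Gclm had 108, 100.4 and 96.7 CPM in APC-deleted and 57.1, 59.4 and 61.1 CPM in APC-intact libraries, and Txnrd1 had 551, 553 and 561 CPM against 325, 336 and 363 CPM in APC-intact cells.

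Glycolysis and lactate genes were mostly lower in the APC-deleted line, with 11 of 21 tested lower and 4 higher and a median of -0.30. Pgk1 is on the X and was left out. Slc16a3, the lactate exporter MCT4, fell to 55.1, 52.5 and 52.2 CPM in APC-deleted libraries, against 125, 146 and 127 CPM in APC-intact libraries (-1.32 ± 0.07, adjusted p = 3.7e-11). Ldha, the lactate dehydrogenase chain that favours lactate, had 575, 586 and 551 CPM against 789, 911 and 867 CPM in APC-intact cells (-0.59 ± 0.06, adjusted p = 1.3e-07). The lines did not overlap in either gene. Enzymes along the path fell with them, namely Pfkl (-0.74 ± 0.08), Aldoa (-0.56 ± 0.06), Tpi1 (-0.59 ± 0.06), Gapdh (-0.30 ± 0.07), Eno1 (-0.39 ± 0.06) and Pkm (-0.44 ± 0.08), and the glucose transporter Slc2a1 (-0.30 ± 0.05). The transporter Slc2a3 (1.74 ± 0.08), the other lactate dehydrogenase chain Ldhb (1.04 ± 0.07) and the regulator Pfkfb3 (0.63 ± 0.08) moved the other way.

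Among targets of the hypoxia-inducible factors, which share several glycolytic targets, 12 of 22 were lower and 2 higher, with a median of -0.23. Ankrd37 (-1.11 ± 0.15), the stress inhibitor of mTOR signalling Ddit4 (-0.66 ± 0.09) and the pyruvate dehydrogenase kinase Pdk1 (-0.57 ± 0.05) fell. So did the mitophagy receptor Bnip3 (-0.56 ± 0.08) and the clock repressor Bhlhe40 (-0.42 ± 0.04). Epas1, which encodes HIF-2α, rose (0.71 ± 0.18, adjusted p = 0.0048). The count of 2 higher became 1 when any library other than APC-intact replicate 1 was left out.

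**Figure D3:**
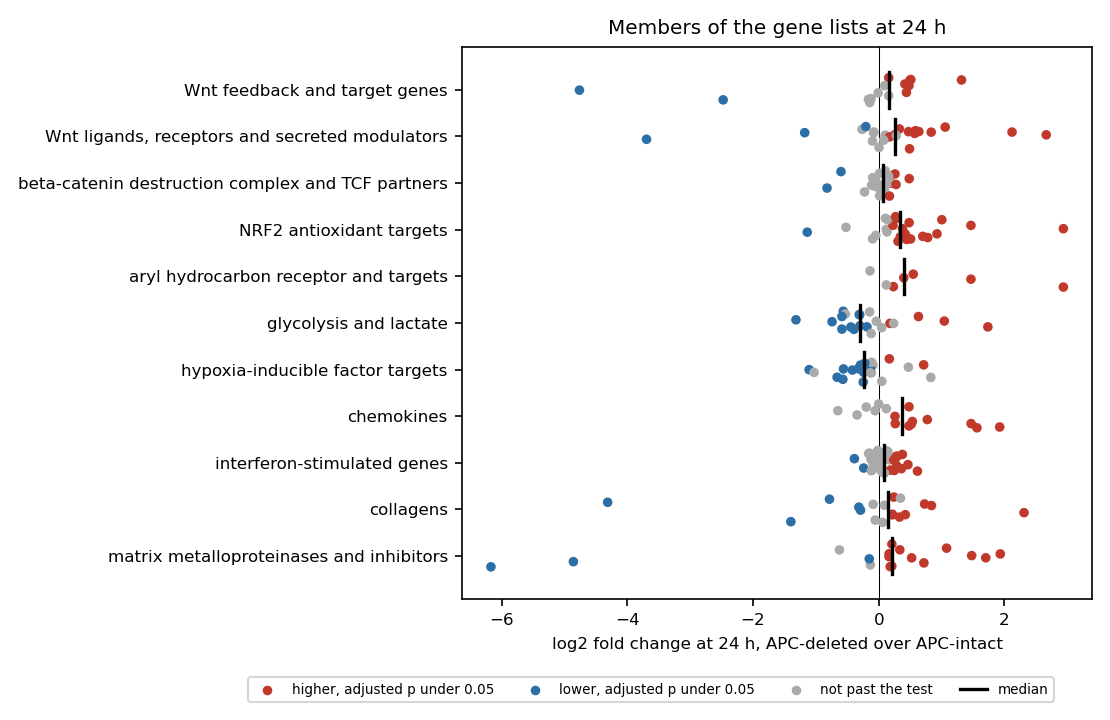
Log2 fold change at 24 h, APC-deleted over APC-intact, for each tested member of 11 gene lists; coloured points passed an adjusted p of 0.05 and black bars are medians. Members of the NRF2 and chemokine lists lie mostly to the right of 0 and those of the glycolysis and hypoxia lists mostly to the left.

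Chemokine genes were higher in the APC-deleted line, 10 of 16 tested with a median of 0.37, and none was lower with edgeR or DESeq2 at an adjusted or unadjusted p under 0.05. Ccl2, which draws monocytes, had 2137, 2189 and 2155 CPM in APC-deleted and 1639.6, 1454 and 1378 CPM in APC-intact libraries (0.54 ± 0.07, adjusted p = 5.2e-06), without overlap. The neutrophil attractants Cxcl5 (1.92 ± 0.23) and Cxcl2 (1.56 ± 0.23) rose at low levels, under 4 CPM in every library at 24 h. Cxcl10 (0.52 ± 0.09) and Cxcl11 (1.47 ± 0.20), ligands of CXCR3 on T cells, Cxcl16 (0.48 ± 0.07) and Cx3cl1 (0.48 ± 0.06) also rose. Of colony-stimulating factor and IL6 family genes 5 of 14 were higher and 2 lower, with a median of 0.24. Beside Csf3 these were Lif (0.44 ± 0.05), Csf1 (0.32 ± 0.05), Il33 (0.63 ± 0.12) and Il6st, against the receptors Il6ra (-0.78 ± 0.08) and Lifr (-0.98 ± 0.24). Ptgs2, the inducible cyclooxygenase, had 1544, 1612 and 1672 CPM in APC-deleted and 1016, 853 and 1124 CPM in APC-intact libraries (0.69 ± 0.08, adjusted p = 2.8e-06). In the acute phase list of 19, with a median of 0.02, it rose with 3 others while 4 fell, among them complement C3 (-0.53 ± 0.07) and Traf1 (-0.40 ± 0.08), and the 4 became 2 without APC-deleted replicate 1, APC-deleted replicate 2 or APC-intact replicate 3.

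Interferon-stimulated genes did not hold one direction. At 24 h 11 of 38 were higher and 2 lower, with a median of 0.09, against 2 higher and 5 lower untreated (median -0.005) and 25 higher and none lower at 48 h (median 0.29, with 1 lower at an unadjusted p under 0.05 in edgeR). Over all genes tested, 16.1% were higher and 14.8% lower at 24 h. The shares were 13.4% higher and 13.4% lower untreated, and 19.4% higher and 15.6% lower at 48 h. No member passed the test of its 24 h difference against the other times, and 48 h was not tested against untreated. Without APC-deleted 24 h replicate 3 the 11 became 4, and without APC-intact 24 h replicate 2 they became 7. Ifit2 (0.38 ± 0.08), Ifi27l2a (0.62 ± 0.15) and the regulator Irf1 (0.29 ± 0.06) rose, while Isg20 (-0.39 ± 0.09) and Stat2 (-0.24 ± 0.06) fell. Isg15 had 92.8, 92.4 and 102 CPM against 94.4, 108 and 96.4 CPM in APC-intact cells, which overlapped (-0.06 ± 0.06, adjusted p = 0.53). In antigen presentation by MHC class I, 5 of 21 were higher and 3 lower, with a median of 0.06. Those lower were Nlrc5 (-0.64 ± 0.09), the class I transactivator, H2-K1 (-0.36 ± 0.10) and B2m (-0.29 ± 0.07), and H2-K1 can share reads with related H2 genes. The 5 higher included the loading factor Tapbp (0.27 ± 0.06) and the proteasome activator Psme1 (0.29 ± 0.08), and became 2 without APC-deleted replicate 2, APC-deleted replicate 3 or APC-intact replicate 1, and 3 without APC-deleted replicate 1. Without APC-intact 24 h replicate 1 and APC-deleted 48 h replicate 2 together, 3 were higher and 5 lower.

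The extracellular matrix differed gene by gene. Of 18 collagens tested 8 were higher and 5 lower, with a median of 0.15 (mean -0.08). Col1a1, a chain of fibrillar type I collagen, had 1089.8, 1109.7 and 1129.9 CPM in APC-deleted and 617, 655 and 589 CPM in APC-intact libraries (0.84 ± 0.06, adjusted p = 1.4e-09). Col8a1 (0.73 ± 0.06) and Col5a1 (0.42 ± 0.05) rose, and beside Col6a3 the anchoring fibril collagen Col7a1 (-1.40 ± 0.12), Col5a3 (-0.78 ± 0.06) and Col6a2 (-0.29 ± 0.06) fell. Of metalloproteinases and their inhibitors 12 of 17 were higher and 3 lower, with a median of 0.21 (mean -0.19). The stromelysin Mmp10 (1.93 ± 0.14), the collagenase Mmp13 (1.70 ± 0.14), the gelatinase Mmp9 (1.08 ± 0.15) and the inhibitors Timp3 (1.48 ± 0.16) and Reck (0.52 ± 0.07) rose. With Mmp2, Adamts12 fell (-4.86 ± 0.76). Of integrins and laminins (median 0.07) 7 of 21 were higher, among them Itga1 (0.81 ± 0.11), Itgb3 (0.73 ± 0.06) and Itgb7 (0.47 ± 0.05), and 4 lower, among them the laminin chain Lamb3 (-2.54 ± 0.67).

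Of 18 epithelial state genes tested (median 0.13, mean -0.07) 4 were higher, among them Krt8 (1.24 ± 0.17) and Jup (0.33 ± 0.06), and 2 lower, among them Pkp3 (-0.87 ± 0.09), beside 31% of all genes called in either direction. The count of 2 lower became 1 without APC-deleted replicate 1. Krt8 was at a low level, as the 12 epithelial markers, which include it, summed to at most 4.62 CPM in any 24 h library. Of 23 mesenchymal state genes (median -0.05) 5 were higher, among them Pdgfra (0.79 ± 0.07), and 5 lower, among them S100a4 (-0.79 ± 0.11), Snai2 (-0.51 ± 0.07) and Vim (-0.27 ± 0.05). Replication genes were evenly divided, with a median of -0.01, 6 of 30 higher (Rrm2 at 0.26 ± 0.05) and 7 lower (Pcna at -0.27 ± 0.05).

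Within each run the lines differed much as they did at 24 h. Of the 24 h calls, 3105 were called in the same direction untreated, which is 69.2% of the 24 h and 80.0% of the 3883 untreated calls (26.8% of genes). In the same direction at 48 h were 3623, which is 80.7% of the 24 h and 71.4% of the 5077 calls at 48 h (35%), with 1 call opposite. At all 3 times 2821 genes (19.5% of those tested) were called in 1 direction, 1497 higher and 1324 lower, and of the 2-fold calls at 24 h 552 of 749 were. The 3 sets of calls rest on 1 fit with a shared estimate of each gene's spread, so they are not separate replications. Across genes, which are not independent replicates, log2 fold changes at 24 h correlated with those untreated at r = 0.841 and with those at 48 h at r = 0.852. The calls found at 24 h and neither untreated nor at 48 h numbered 580 (12.9%), 251 higher and 329 lower, with a median size of 0.27 on the log2 scale.

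The difference between the 24 h line difference and the mean of the within-run ones was tested for each gene. If line, time and run add up, this contrast is the run effect, so an effect of run and a line difference particular to 24 h cannot be told apart. No gene passed the adjusted threshold with edgeR or with DESeq2, while 386 (2.66%) had an unadjusted p under 0.05 with edgeR and 412 with DESeq2. The smallest adjusted p was 0.99994 with edgeR and 0.16 with DESeq2. The median SE of this contrast was 0.10 on the log2 scale, against 0.084 for the 24 h difference. Csf3 was higher in APC-deleted cells by 2.81 at 24 h, against 1.78 untreated and 2.37 at 48 h (unadjusted p of the difference 0.0017). Plk2, a stress-induced kinase, was higher by 0.47, 0.15 and 0.43 at 24 h, untreated and at 48 h (unadjusted p 0.0048), and Ahr by 0.55, 0.24 and 0.44 (unadjusted p 0.020). None of these 3, picked after their values were seen, passed the adjustment. Without APC-intact 24 h replicate 3, 1 gene did, Gm10282, at -3.70 ± 0.39 (adjusted p = 0.00016), also named after its value was seen.

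The lists compared with the within-run differences as follows. Of the NRF2 list, 16 were higher and 1 lower untreated, and 18 higher and 3 lower at 48 h. Keap1 was lower by 1.03 untreated and by 0.90 at 48 h on the log2 scale, and Nqo1 was higher by 1.32 untreated and 1.45 at 48 h. Of the glycolysis list 12 were lower and 4 higher untreated, and 11 lower and 5 higher at 48 h. Wnt feedback and target genes had 8 higher and 2 lower untreated, and 7 higher and 3 lower at 48 h, with Axin2 at 0.80 untreated and 0.49 at 48 h and Rnf43 at 1.28 untreated and 1.33 at 48 h. Chemokines had 7 higher and 2 lower untreated, and 11 higher and 1 lower at 48 h. Called in the same direction at all 3 times were 15 of the NRF2, 15 of the glycolysis, 8 of the Wnt feedback and 7 of the chemokine list. Other lists differed between the times. Acute phase genes, with 4 higher and 4 lower at 24 h, had 2 higher and 6 lower untreated (median -0.13) and 8 higher and 2 lower at 48 h (median 0.19). Epithelial state genes had a median of -0.04 untreated and -0.21 at 48 h, against 0.13 at 24 h. Mesenchymal state genes had medians of 0.07 untreated and 0.10 at 48 h, against -0.05 at 24 h, and kynurenine pathway genes 0.03 and -0.11, against -0.16. These differences between times were not tested for the lists.

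**Figure D4:**
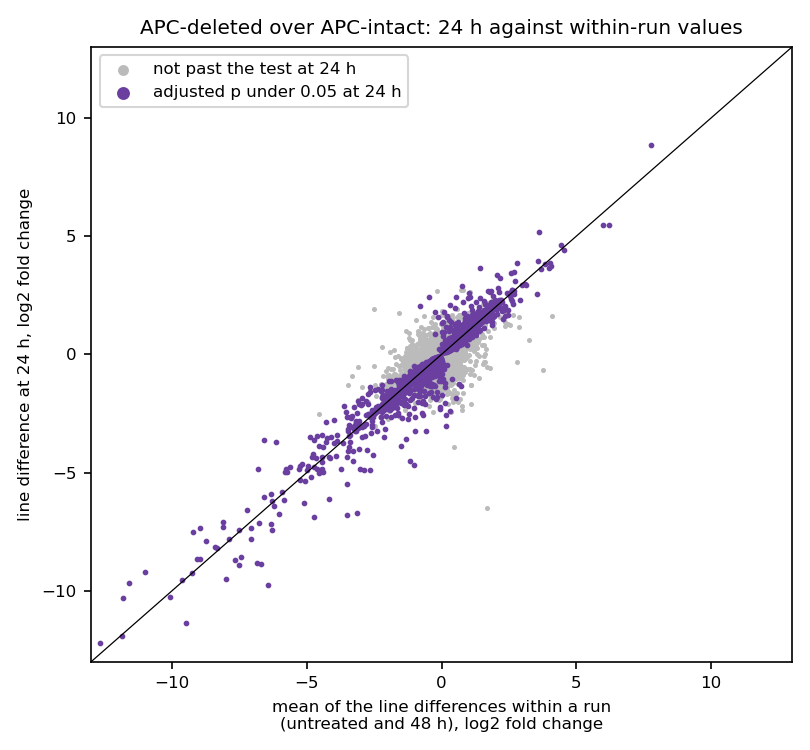
Log2 fold change of each tested gene at 24 h, APC-deleted over APC-intact, against the mean of the untreated and 48 h line differences; the line marks equal values and purple genes had an adjusted p under 0.05 at 24 h. Genes called lie along the line, including the large falls at the lower left, and no gene's departure from it passed the adjusted test.

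Line differences were also uneven between chromosomes. Of all genes tested, 16.1% were higher and 14.8% lower at 24 h. On chromosome 18, which carries Apc, 135 of 385 tested genes were lower (35.1%) and 26 higher (6.75%), with a median log2 fold change of -0.16. On chromosome 5, 283 of 935 were lower (30.3%) and 73 higher (7.81%), with a median of -0.13. On chromosome 12, 169 of 501 were higher (33.7%) and 31 lower (6.19%), with a median of 0.13. The medians at the other times were close to these, at -0.17, -0.13 and 0.13 untreated and -0.17, -0.11 and 0.14 at 48 h for chromosomes 18, 5 and 12. Apc itself was at -0.60, beyond its chromosome's median. These are descriptions with no test, and copy number was not measured.

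**Figure D5:**
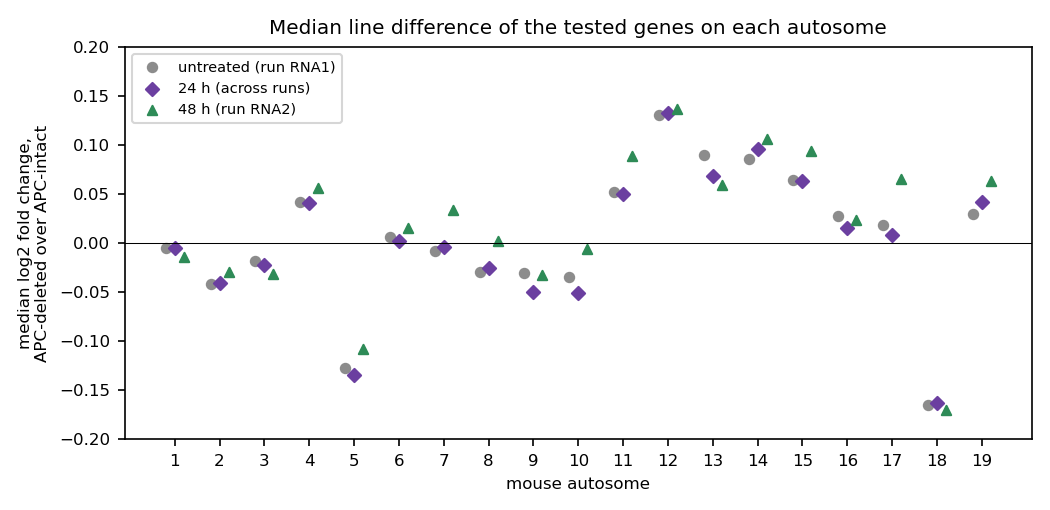
Median log2 fold change, APC-deleted over APC-intact, of the tested genes on each autosome, without doxycycline, at 24 h and at 48 h. Chromosomes 5 and 18 lie lowest and chromosome 12 highest at all 3 times.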

How the data were processed

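Each library's deposited file lists raw gene counts (whole numbers, by its header) and an RPKM column by the authors that was not used. STAR, HTSeq and mm10 are named in the submitters' processing notes; versions, annotation release and use of strand are not given in the sources used here. Rows that name no gene (23.7 to 25.4% of a 24 h library's total, with reads that were not unique at 16.0 to 17.5%) and genes on the X were left out before library sizes.

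The tests used edgeR 4.0.16 under R 4.3.3 (filterByExpr by group, TMM, 1 coefficient per group over all 18 libraries, robust glmQLFit, glmQLFTest, Benjamini-Hochberg at 0.05). The common biological coefficient of variation was 8.28%. The members, lists and tests were chosen with earlier results of these data known, so the lists are no independent evidence of direction. Lists are described by counts and medians, with no set test. Their 24 h counts are to be read beside 16.1% higher and 14.8% lower over all genes tested.

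The rule for named genes took the 14 largest rises and falls among genes called, with an assigned symbol, non-overlapping libraries and a mean of 5 CPM or more in 1 line; up to 4 members per list and direction by smallest adjusted p; and Apc, Tdo2 and the Wnt and kynurenine lists. Further list members were named after their values were seen. Some genes the rule took are not reported here.

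Alternatives were DESeq2 1.42.0, DESeq-style factors, no filter, a replicate block, the X kept, all libraries thinned to the smallest one (seed 11), only the 6 libraries compared, a test against a 1.5-fold change and leaving out each library. Leaving out APC-intact 24 h replicate 1 with APC-deleted 48 h replicate 2 was added after seeing the data. On 14216 genes with simulated counts in place of the 24 h comparison, edgeR called 76 of the 100 genes given a fold of 1.5 and 76 of the 100 given a fold of 2, beside 6 that were not changed. Over 1 CPM it called 91.5% and 100% of the 2 sets. Apart from the genes changed, the simulated counts had 1 mean per gene in all groups, and a spread set by expression level alone. No simulated library was made to stand apart, so these rates are not those of the real comparison. Replicates differed by more than sampling noise.

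With the counting's strand setting unknown, genes that overlap another tested gene are uncertain. Among those in the text these are Ankrd37, Afmid, Btrc, Ccnd1, Col5a1, Csnk1e, Ctnnb1, Cxcl11, Dvl2, Gclm, Irf1, Itga1, Keap1, Psme1, Rnf43, Tapbp, Tcf7l1, Timp3, Tpi1 and Wnt5b, with Ddb2, Efna4, Igf2, Mest and Nampt in the closing section. Figures used matplotlib 3.10.9 in Python 3.11.15 with pandas 2.3.3.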

Additional observations from a re-analysis of the deposited data

How the results depend on the processing

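The 4488 calls at 24 h became 4452 with DESeq-style factors, 4065 with no filter, 4645 with a replicate block, 4469 with the X kept in the fit, 4343 after thinning, 4806 with DESeq2, 3552 with only the 6 libraries and 4735 without APC-intact 24 h replicate 1 and APC-deleted 48 h replicate 2; 3416 to 4415 were called with 1 library left out (1780 to 2302 higher, 1636 to 2113 lower). Between 74.9% and 99.4% of the main calls were called in the same direction in each. Tested against a fold of 1.5, 563 genes passed (231 higher, 332 lower). With 1 library left out, calls untreated ranged from 2905 to 3407 (1433 to 1777 higher, 1462 to 1630 lower). At 48 h they ranged from 4065 to 5002 (2131 to 2600 higher, 1913 to 2402 lower). With only the 2 groups compared, untreated calls rose from 3883 to 5439 (2781 higher, 2658 lower). Those at 48 h fell from 5077 to 3671, with 1773 higher, against 2811 in the fit of all libraries. Untreated cells then had the most calls, and 24 h the fewest (3552). The order of the times by number of calls therefore depends on the fit. The difference between 24 h and the within-run values gave 0 calls in every setting other than leaving out APC-intact 24 h replicate 3 (0 to 1). Apc ranged from -0.76 to -0.48 and Tdo2 from -1.08 to -0.36 with 1 library left out, and the distinct list members called from 239 to 277. Of 164 genes with values in the text that were called, 2 (Znrf3 and Afmid) lost the call in some settings. The test against a fold of 1.5 was not among the settings counted for these genes. Many of them were named for a small adjusted p or a large change, which favours keeping the call. Genes not called changed sign when 1 library was left out: Ctnnb1 (range -0.031 to 0.051; -0.00077 without APC-deleted 24 h replicate 2, -0.031 without APC-intact 24 h replicate 2), Ccnd1 (-0.037 to 0.0076; 0.0076 without APC-deleted replicate 2, 0.0063 without APC-intact replicate 3) and Isg15 (-0.11 to 0.0019; 0.0019 without APC-intact replicate 2). Myc passed the threshold with the replicate block (adjusted p = 0.036). The medians of chromosomes 5, 12 and 18 moved by less than the spread between replicates. Same-numbered libraries of the lines did not deviate together (correlations 0.007, -0.048 and 0.038), so the numbers were not read as pairs. The causes of these changes were not tested. Genes under the filter, Tdo2 among the genes near it, cannot show a moderate difference at this depth.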

Other observations

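The counts in this paragraph stand beside 16.1% higher and 14.8% lower over all genes tested. Of 24 semaphorins, plexins and neuropilins, which guide axons and vessels, 9 were higher and 7 lower in APC-deleted cells (median 0.009). Sema3f and Sema3c (1.94 ± 0.09) led the higher side, and Sema6a (-1.62 ± 0.32) and Sema7a (-1.13 ± 0.12) led the lower. Of 13 ephrin receptors and ligands 6 were higher (median 0.13, mean -0.25), among them Efna4 (0.57 ± 0.10), and 2 lower, Ephb2 and Epha2 (-0.19 ± 0.05), and the 6 became 3 without APC-deleted replicate 1. Of 25 AP-1 and immediate early genes (median -0.15) 10 were lower, with Klf2 (-0.82 ± 0.13), Jund (-0.65 ± 0.11), Fosl1 (-0.63 ± 0.08), Klf4 (-0.58 ± 0.05) and Atf3 (-0.55 ± 0.07). Another 6 were higher, with Fosb (0.60 ± 0.08), Ier5 (0.35 ± 0.06) and Dusp1 (0.30 ± 0.06). Those 6 became 3 without APC-deleted replicate 1.

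Of 22 p53 targets 11 were higher, among them Trp53inp1 (0.81 ± 0.14), the repair gene Ddb2 (0.57 ± 0.09), the death receptor Tnfrsf10b (0.52 ± 0.05) and Plk2, and 3 lower, among them the cell cycle inhibitor Cdkn1a (-0.39 ± 0.07) and the BH3-only gene Pmaip1 (-2.94 ± 0.34). The 11 became 7 without APC-deleted replicate 1 or APC-deleted replicate 3. Pmaip1 was at a low level, with 0.0619, 0.0741 and 0.0748 CPM in APC-deleted and 0.473, 0.572 and 0.599 CPM in APC-intact libraries. Of 16 BCL2 family genes 1 was higher, Bcl2l15, and 4 were lower, Pmaip1, Bid, Bcl2 and Bbc3, beside 31% of all genes called. The 1 became 2 without APC-intact replicate 1 and 3 without APC-intact replicate 2, and the 4 became 2 without APC-deleted replicate 2 or 3 or APC-intact replicate 1. Bcl2l15 had 19.3, 21.9 and 20.9 CPM in APC-deleted and 6.64, 7.52 and 6.90 CPM in APC-intact libraries (1.56 ± 0.07, adjusted p = 2e-12). Among imprinted genes the growth factor Igf2 was lower (-0.78 ± 0.08) and the neighbouring noncoding H19 higher (1.91 ± 0.39), and Plagl1 had 0 counts in APC-deleted and 58 in APC-intact libraries, at least 23-fold lower with 3 counts over the group as the floor. Mest, under 0.4 CPM in every library at 24 h, was at -1.67 ± 0.42, and at -2.39 without APC-deleted 24 h replicate 2. In NAD salvage Nampt (0.34 ± 0.07) and Nmnat3 (0.67 ± 0.14) were higher and the methyltransferase Nnmt (-0.43 ± 0.06) lower. The 13 genes of the mitochondrial genome had a median of 0.31, against -0.30 untreated and 0.41 at 48 h, with no call by edgeR (1 at an unadjusted p under 0.05) and 1 by DESeq2. They summed to 2426 to 4320 CPM in APC-deleted libraries, against 2657 to 2827 CPM in APC-intact ones. The sums overlapped, and without APC-deleted replicate 3 edgeR called 1 of them. Of the ATF4 list 2 of 30 were higher and 5 lower, of cholesterol synthesis 2 of 20 were higher and 4 lower, and of the G2 and M phase list 5 of 26 were higher and 1 lower, shares at or below the 31% called over all genes. The 2 higher of the ATF4 list became 1 without any APC-deleted library or APC-intact replicate 1. The 2 of cholesterol synthesis became 0 without APC-deleted replicate 1 and 1 without APC-deleted replicate 2 or APC-intact replicate 1 or 2. The 5 of the G2 and M phase list became 3 without APC-deleted replicate 2 and 2 without APC-deleted replicate 3 or APC-intact replicate 1, and the 1 lower became 4 without APC-intact replicate 3.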
